A study of Mus musculus with 7 samples.

Results

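The genes described are the 4 adult globin genes of the mouse (Hba-a1, Hba-a2, Hbb-bs and Hbb-bt) and 6 genes of the erythroid programme (Gata1, Klf1, Epor, Alas2, Car1 and Car2). They were taken by symbol from the deposited expression table, and all 10 were found among its 52224 genes. Haematopoietic stem cells, the rare marrow cells from which all blood cells derive, had been sorted from the bone marrow of wild-type C57BL/6J mice as lineage-negative cells with Sca-1, c-Kit and CD150 and without CD48. They were then kept in culture for 48 h with DMSO, the solvent control (3 libraries), with gemcitabine at 0.5 µM (Gem, 2 libraries) or with hydroxyurea at 100 µM (HU, 2 libraries). Gemcitabine is a nucleoside analogue, and hydroxyurea inhibits ribonucleotide reductase; both hinder DNA replication. The age of the mice is not given in the sources used here. Whether the libraries within a group stem from different mice or culture wells is not stated either, and the spread behind each p-value is that between libraries, which may be technical.

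Adult haemoglobin joins alpha chains, made from Hba-a1 and Hba-a2, with beta chains, made in this strain from Hbb-bs and Hbb-bt. The genes are switched on as stem and progenitor cells commit to red cells: the zinc finger factor Gata1 binds GATA motifs, Klf1 binds CACCC motifs in globin promoters, erythropoietin acts through its receptor Epor, and Alas2 starts haem synthesis in erythroid cells. Stem cells are not known as globin producers, and Gata1 is also active in megakaryocytes, mast cells and eosinophils. In these bulk libraries, fewer cells of a type and less RNA per cell cannot be told apart.

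Levels are FPKM (fragments per kilobase of transcript, scaled to the mapped fragments of the library) as deposited, with no read counts, so the depth is unknown. Total FPKM was 818775 to 832979 in the DMSO libraries, 703016 to 729258 with Gem and 647760 to 651315 with HU, and the genes above 0 numbered 21251 to 23047, 27887 to 29158 and 29687 to 31153. Of 1374 olfactory and vomeronasal receptor genes, which blood cells are not known to use, 316 to 352 were above 0 with DMSO, 804 to 876 with Gem and 1000 to 1020 with HU. The median of the 13865 genes tested moved by -0.25 on the log2 scale with Gem and -0.30 with HU, against 0.01 for both after trimmed-mean scaling, a rescaling that centres the bulk of genes. Each change is therefore given as deposited and after that scaling ("scaled"). Of the stem cell markers, Kit, Cd34, Ly6a (which encodes Sca-1), Procr and Hoxa9 were above 1 FPKM in every library. Hlf was read at 0.60 to 3.68, Mecom at 0.18 to 1.71 and Slamf1 (CD150) at 0.41 to 1.25, and Fgd5 stayed under 1 in all 7. Summed markers of granulocytes and monocytes reached 42127 to 52125 FPKM, against 168.5 to 242.7 for the 9 stem cell markers. Lyz2 alone was read at 21718 to 36422 FPKM and Cd34 alone at 98.3 to 128.5, so these sums do not compare numbers of cells.

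The copies within each globin pair are nearly the same sequence, which limits how far reads can be divided between them. In GENCODE M21 (GRCm38, the assembly of mm10) Hba-a1 lies at chr11:32283511-32284465 and Hba-a2 at chr11:32296489-32297298, both on the plus strand. Hbb-bs lies at chr7:103826534-103828096 and Hbb-bt at chr7:103812524-103813996, both on the minus strand. The coding sequences of the alpha pair, 426 bases each, differed at 1 base (C381T, from Hba-a1 to Hba-a2, counted from the A of the start codon), and those of the beta pair, 441 bases each, also at 1 (C417T, from Hbb-bs to Hbb-bt). The 4 stretches of 31 bases around these positions, all in exon 3, are shown 5′ to 3′ because they hold the only coding bases that tell the copies apart, and the capital marks that base.
Hba-a1: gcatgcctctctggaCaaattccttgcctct
Hba-a2: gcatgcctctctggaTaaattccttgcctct
Hbb-bs: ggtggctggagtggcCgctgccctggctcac
Hbb-bt: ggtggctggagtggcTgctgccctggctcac
The stretches lie at chr11:32284328-32284358, chr11:32297145-32297175, chr7:103826677-103826707 and chr7:103812668-103812698. Over whole transcripts, untranslated ends included, 56.5% of the 100-base windows of Hba-a1 and 74.5% of those of Hba-a2 were found in the other copy. For Hbb-bs and Hbb-bt the shares were 62.6% and 54.8%. How the authors assigned reads that match both copies is not given in the sources used here, so the values of single copies are uncertain, and the sum of each pair is given as well.

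RefSeq promoter windows (GRCm38.p6, 250 bases before the start site) were available for 8 of the 10 genes. They were searched on both strands for GATAA, as a GATA motif, for CACCC, as in the sites of Klf1, for the CCAAT box and for ATATAA, as a TATA box. No match overlapped another. CACCC was found in 8 of 8 windows, against 52.0% of the 32851 promoters of the table, and GATAA in 7 of 8, all but Gata1, against 22.6%. ATATAA was found only in the 4 globin windows, against 9.1% of all promoters, and CCAAT in those 4 and Klf1, against 33.9%. The alpha windows were identical over all 247 aligned bases, whereas the beta windows shared 127 of 249 (51.0%) when compared at 1 offset with no gaps, which counts stretches shifted by an insertion as different. Shown are the stretches of the Hba-a2, Hbb-bs and Hbb-bt windows outside exons annotated in GENCODE M21, with capitals for motif matches. The last 2 capitals of Hbb-bt open a CCAAT that continues past the stretch. The parts left out hold the only CACCC of Hbb-bs (at -90 from the start site). For Hbb-bt they hold the ATATAA (-29) and a reverse CCAAT (-36). A motif absent from the printed stretches can therefore be present in the window.
Hba-a2, chr11:32296242-32296488, plus strand: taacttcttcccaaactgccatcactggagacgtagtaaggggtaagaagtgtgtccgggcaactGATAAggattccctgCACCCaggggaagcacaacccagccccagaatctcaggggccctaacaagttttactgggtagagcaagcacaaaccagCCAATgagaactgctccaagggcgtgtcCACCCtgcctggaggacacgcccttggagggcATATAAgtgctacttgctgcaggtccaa
Hbb-bs, chr7:103828097-103828178, minus strand: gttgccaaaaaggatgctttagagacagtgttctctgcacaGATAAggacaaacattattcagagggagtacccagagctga
Hbb-bs, chr7:103827929-103828011, minus strand: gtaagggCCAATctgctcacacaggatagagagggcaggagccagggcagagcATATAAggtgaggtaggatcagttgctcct
Hbb-bt, chr7:103813997-103814173, minus strand: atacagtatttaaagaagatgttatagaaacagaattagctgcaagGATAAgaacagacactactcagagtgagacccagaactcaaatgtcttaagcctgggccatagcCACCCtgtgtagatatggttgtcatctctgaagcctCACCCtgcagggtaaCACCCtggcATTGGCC
A match describes the letters only; binding was not measured in these libraries.

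In DMSO the globin genes were read at low levels. Hbb-bt had the highest mean of the 10 genes, 30.5 ± 8.80 FPKM (SD, n = 3), above 75.2% of the genes tested. Gata1 followed at 24.2 ± 3.99, Car2 at 22.1 ± 0.42, Hbb-bs at 15.4 ± 10.4, Hba-a2 at 11.99 ± 3.91 and Hba-a1 at 9.06 ± 4.04 FPKM. Epor (2.50 ± 0.86), Klf1 (1.22 ± 0.24), Car1 (0.84 ± 0.67) and Alas2 (0.68 ± 0.15) formed the lower end. Neighbours in this order lay within the summed SDs of their means, except that Hba-a1 lay above Epor and Epor above Klf1 by more than that. The adult globins together made up 0.00289% to 0.0115% of the FPKM of a library. Of 9 erythroid markers measured, Klf1 and the membrane gene Slc4a1 among them, only Hemgn reached 1 FPKM in every library and 6 stayed under 1 in all 7; Slc4a1 and Trim10 were listed at 0 in the 3 DMSO libraries.

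**Figure D1:**
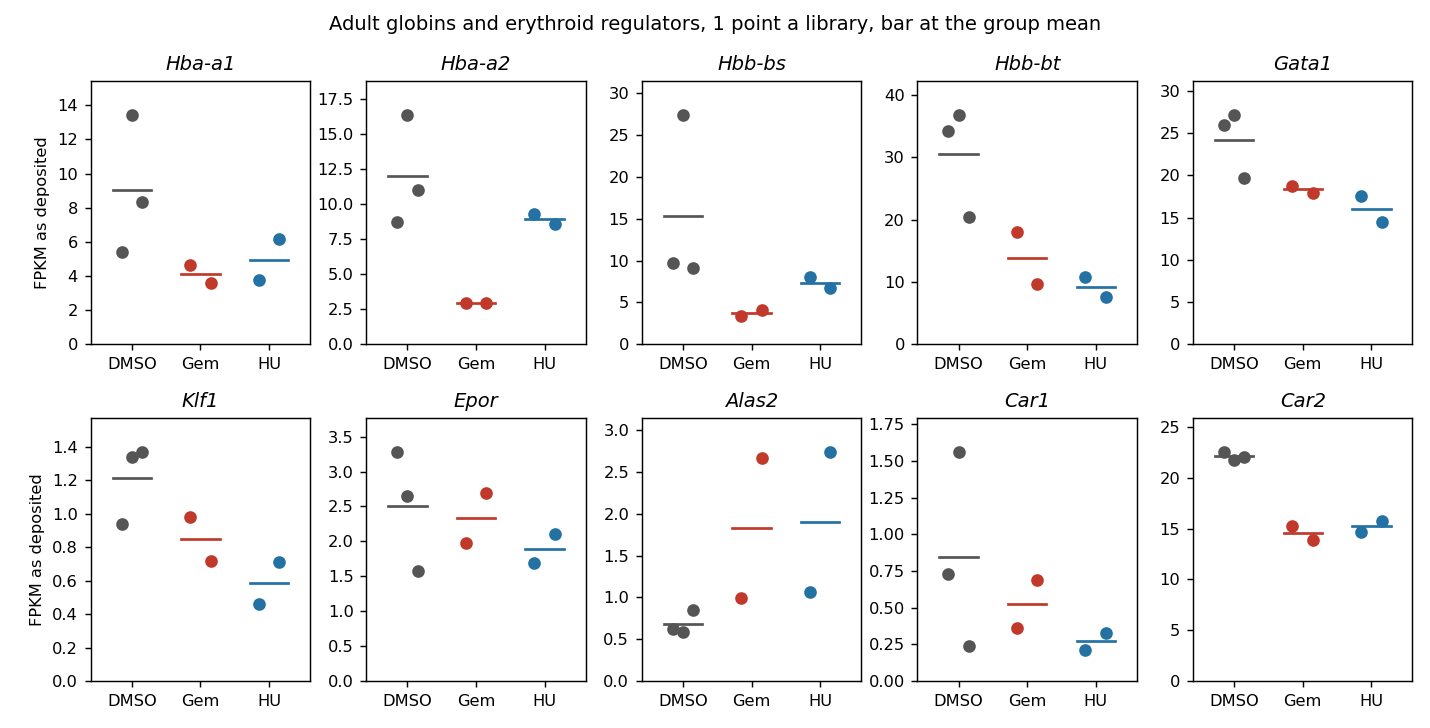
FPKM of each of the 10 genes in the 3 DMSO, 2 Gem and 2 HU libraries (points, linear axis from 0 in each panel), with the group mean as a bar. Hba-a2 stood at 2.93 in both Gem libraries and at 8.70 to 16.3 in DMSO, and Car2 at 13.9 to 15.8 in the 4 drug libraries against 21.7 to 22.5 in DMSO.

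Among the alpha genes, Hba-a2 fell with Gem and Hba-a1 did not pass. Hba-a2 was read at 8.70, 16.3 and 10.97 FPKM in DMSO libraries 1 to 3, at 2.93 in both Gem libraries, and at 9.28 and 8.60 in HU libraries 1 and 2. Both Gem libraries lay below all DMSO libraries, and of the HU libraries 1 lay within the DMSO range and 1 just below it. The mean with Gem was 4.09-fold lower than with DMSO, a log2 change of -1.68 ± 0.23 (SE; limma with Benjamini-Hochberg adjustment over the 13865 genes, adjusted p = 0.00687), and -1.43 ± 0.22 scaled (adjusted p = 0.0407). As deposited, the call held without Gem replicate 1 (adjusted p = 0.0327) and was lost without Gem replicate 2 (0.0587); after scaling it ended when any 1 of the 7 libraries was left out (adjusted p 0.05 to 0.249). With HU, Hba-a2 had a log2 difference of -0.35 ± 0.23 (95% interval -0.87 to 0.18, adjusted p = 0.259), and -0.02 scaled. Hba-a1 was read at 5.43, 13.4 and 8.33 FPKM in DMSO, 4.66 and 3.60 with Gem and 3.75 and 6.15 with HU. Its differences from DMSO were -0.90 ± 0.34 with Gem (adjusted p = 0.0884) and -0.71 ± 0.34 with HU (adjusted p = 0.132), and the Gem libraries lay below DMSO as deposited but overlapped after scaling. Without DMSO replicate 1, both passed (adjusted p = 0.0481 and 0.0431).

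Among the beta genes, Hbb-bt was called lower with HU under every setting planned. With Gem, both Hbb-bs and Hbb-bt were called lower on the deposited scale but not after scaling. The Gem calls of Hbb-bs and Hbb-bt were also lost without the filter on low values (adjusted p = 0.113 and 0.147) and without the mean-variance trend (0.0586 and 0.0755). Hbb-bt was read at 34.3, 36.8 and 20.4 FPKM in DMSO, 18.0 and 9.67 with Gem, and 10.7 and 7.55 with HU. All 4 drug libraries lay below the lowest DMSO library. The HU mean was 3.34-fold lower, with a log2 change of -1.61 ± 0.32 (adjusted p = 0.00732) and -1.27 ± 0.31 scaled (adjusted p = 0.0427). After scaling, the call was lost without DMSO replicate 1 or 2 or either HU replicate (adjusted p 0.1 to 0.217). With Gem the change of Hbb-bt was -1.10 ± 0.32 (adjusted p = 0.0424), and -0.82 scaled (adjusted p = 0.238). Leaving out DMSO replicate 1 or 2, Gem replicate 2 or HU replicate 2 ended the deposited call (adjusted p = 0.112, 0.102, 0.254 and 0.0509). Hbb-bs was read at 9.71, 27.4 and 9.08 FPKM in DMSO, 3.40 and 4.11 with Gem, and 8.04 and 6.72 with HU. DMSO replicate 2 stood apart from the other 2 DMSO libraries, and both Gem libraries lay below all 3, also after scaling (3.59 and 4.53 against 8.12 to 23.8). The change with Gem was -1.61 ± 0.42 (adjusted p = 0.03), or -1.35 scaled (adjusted p = 0.165), and it no longer passed without Gem replicate 1 (0.121) or 2 (0.125). With HU the difference was -0.80 ± 0.42 (95% interval -1.77 to 0.17, adjusted p = 0.165).

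The sums of each pair depend less on how reads were divided between copies, and they are given with no test. The alpha sum was 14.1, 29.7 and 19.3 FPKM in DMSO, 7.59 and 6.53 with Gem, and 13.0 and 14.8 with HU. Only the Gem libraries lay clear of DMSO, also after scaling (8.02 and 7.20 against 12.3 to 25.9), while the scaled HU sums of 14.9 and 16.4 lay inside the DMSO range. The beta sum was 44.0, 64.1 and 29.5 FPKM in DMSO, 21.4 and 13.8 with Gem, and 18.8 and 14.3 with HU. Here both drugs lay below every DMSO library, scaled as well (15.2 to 22.6 against 26.4 to 55.8). The beta sum exceeded the alpha sum 1.53- to 3.11-fold with DMSO and 2.11- to 2.82-fold with Gem; the ratio was 1.44 and 0.97 with HU, the lowest of the 7. Hba-a2 made up 54.9% to 61.6% of the alpha sum with DMSO, 38.6% and 44.9% with Gem and 71.2% and 58.3% with HU. Hbb-bt made up 57.3% to 77.9% of the beta sum with DMSO, 84.1% and 70.2% with Gem, and 57.1% and 52.9% with HU.

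**Figure D2:**
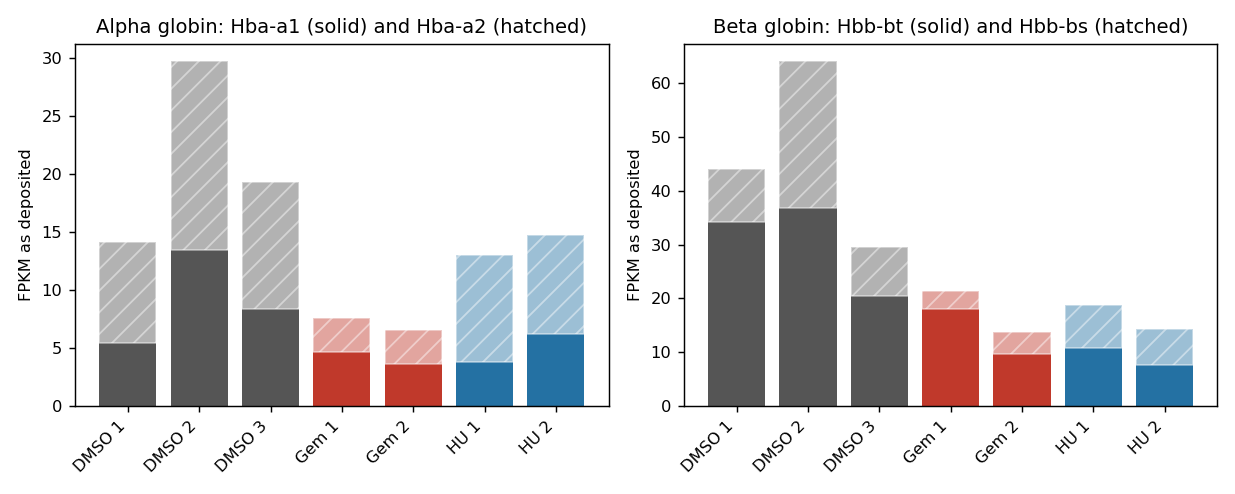
Stacked FPKM of the alpha pair (Hba-a1 solid, Hba-a2 hatched) and of the beta pair (Hbb-bt solid, Hbb-bs hatched) in each library, with axes from 0. DMSO replicate 2 had the highest sums, 29.7 and 64.1 FPKM, and Gem replicate 2 the lowest, 6.53 and 13.8.

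Some sums of cell markers were highest in the same DMSO library as the globin sums, and others were not. Among the DMSO libraries, the mast cell, megakaryocyte and eosinophil sums were highest in replicate 2. Those of granulocytes and monocytes and of stem cells were lowest there. The summed FPKM of 10 mast cell and basophil markers was 640.7, 1389 and 303.6 in DMSO, 424.2 and 237.5 with Gem, and 226.4 and 221.9 with HU, highest in DMSO replicate 2 as the globin sums were. The 9 erythroid markers summed to 5.80, 5.80 and 6.51 FPKM in DMSO, 4.58 and 3.93 with Gem, and 2.67 and 4.75 with HU. Their highest sum was in DMSO replicate 3. The 10 megakaryocyte and platelet markers summed to 1794 to 2896, 1749 to 1844 and 1396 to 1593 FPKM with DMSO, Gem and HU. The 6 eosinophil markers summed to 736.7 to 1363, 1397 to 1605 and 1178 to 1221 FPKM. Both Gem sums lay above every DMSO sum, and both HU sums lay inside the DMSO range. Prg2 alone was read at 701.5 to 1534 FPKM, so this sum mainly follows that gene. The part of these cells in the globin and Gata1 values was not tested.

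Gata1, which was read at a higher level than Klf1 and Epor, was lower with HU on the deposited scale. It was read at 25.9, 27.1 and 19.7 FPKM in DMSO, 18.8 and 17.9 with Gem, and 17.6 and 14.5 with HU; all 4 drug libraries were below the lowest DMSO library. With HU it fell by 0.56 ± 0.15 on the log2 scale (adjusted p = 0.0231), but the scaled difference was -0.22 ± 0.15 (adjusted p = 0.407), and the scaled groups overlapped. The deposited call was lost without DMSO replicate 1 (0.0684), DMSO replicate 2 (0.061) or HU replicate 2 (0.129). With Gem the difference was -0.37 ± 0.15 (adjusted p = 0.111), and -0.09 scaled. Klf1, the CACCC factor of the beta promoter, was read at 0.94, 1.34 and 1.37 FPKM in DMSO, 0.98 and 0.72 with Gem, and 0.46 and 0.71 with HU. It reached the threshold for testing only through DMSO libraries 2 and 3; neither difference passed (-0.26 ± 0.22, adjusted p = 0.412, and -0.48 ± 0.22, adjusted p = 0.117). In HU replicate 1, 6.48% of the 1374 olfactory and vomeronasal receptor genes reached the value of Klf1. Epor was read at 3.28, 2.65 and 1.58 FPKM in DMSO, 1.97 and 2.70 with Gem, and 1.69 and 2.1 with HU. The groups overlapped, with log2 differences of -0.05 (95% interval -0.63 to 0.53, adjusted p = 0.905) and -0.25 (-0.83 to 0.33, adjusted p = 0.458); the Gem difference was 0.16 scaled, of the opposite sign.

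Alas2, whose enzyme makes the first precursor of haem in red cells, was the only one of the 10 with higher means under both drugs, and neither difference passed. It was read at 0.62, 0.58 and 0.85 FPKM in DMSO, 0.99 and 2.67 with Gem, and 1.07 and 2.74 with HU. All 4 drug libraries were above the DMSO libraries, with 1 high and 1 low library in each drug group. The log2 differences were 0.69 ± 0.35 (adjusted p = 0.182) and 0.73 ± 0.35 (adjusted p = 0.132), and 0.83 and 0.91 scaled (adjusted p = 0.296 and 0.163). Alas2 reached the threshold for testing only through drug libraries. Apex2, which overlaps Alas2 on the opposite strand and whose reads cannot be told apart without strand, was read at 7.20 to 8.43 FPKM in DMSO, 7.04 and 8.75 with Gem, and 4.86 and 6.48 with HU.

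The carbonic anhydrases interconvert carbon dioxide and bicarbonate, and Car2 and Car1 are the main forms of red cells. Car2 was read at 22.5, 21.7 and 22.0 FPKM in DMSO, 15.2 and 13.9 with Gem, and 14.7 and 15.8 with HU. Its DMSO libraries differed little from each other, and all drug libraries lay below them, also after scaling (15.4 to 17.5 against 18.9 to 19.7). It fell by 0.57 ± 0.09 on the log2 scale with Gem (adjusted p = 0.00821) and by 0.51 ± 0.09 with HU (adjusted p = 0.00457); the Gem call was lost without Gem replicate 2 (adjusted p = 0.0724). Scaled, the differences were -0.29 ± 0.08 (adjusted p = 0.139) and -0.17 ± 0.08 (adjusted p = 0.246), so neither call held. Car1 was read at 0.73, 1.56 and 0.24 FPKM in DMSO, 0.36 and 0.69 with Gem, and 0.21 and 0.33 with HU. It was under 1 in 6 of 7 libraries and was not tested. In HU replicate 1, 26.2% of the olfactory and vomeronasal receptor genes reached its value, and in HU replicate 2, 9.39%.

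In all, 9 of the 10 genes were tested. With Gem, 4 were called lower and none higher (limma), against 23.2% of all genes called lower and 1.5% higher. With HU, 3 were called lower and none higher, against 35.5% and 4.46%, so that the count with HU was close to that share of all genes. After scaling, 1 gene was called lower with Gem (Hba-a2; 0.476% of all genes called lower) and 1 with HU (Hbb-bt; 5.49%), and none higher (0.483% and 4.65% of all genes). As deposited, the Gem libraries lay wholly below DMSO for 6 of the 9 genes and above for 1, against 50.4% and 5.94% of all genes, and the HU libraries for 5 and 1, against 53.9% and 8.24%. After scaling the counts were 3 and 1 with Gem (17.8% and 17.7% of all genes) and 3 and 1 with HU (20.4% and 21.1%). The median log2 change of the 9 genes was -0.57 with Gem and -0.51 with HU, beside -0.25 and -0.30 for all genes tested. Both contrasts use the same 3 DMSO libraries, so a low or high DMSO library enters both.

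**Figure D3:**
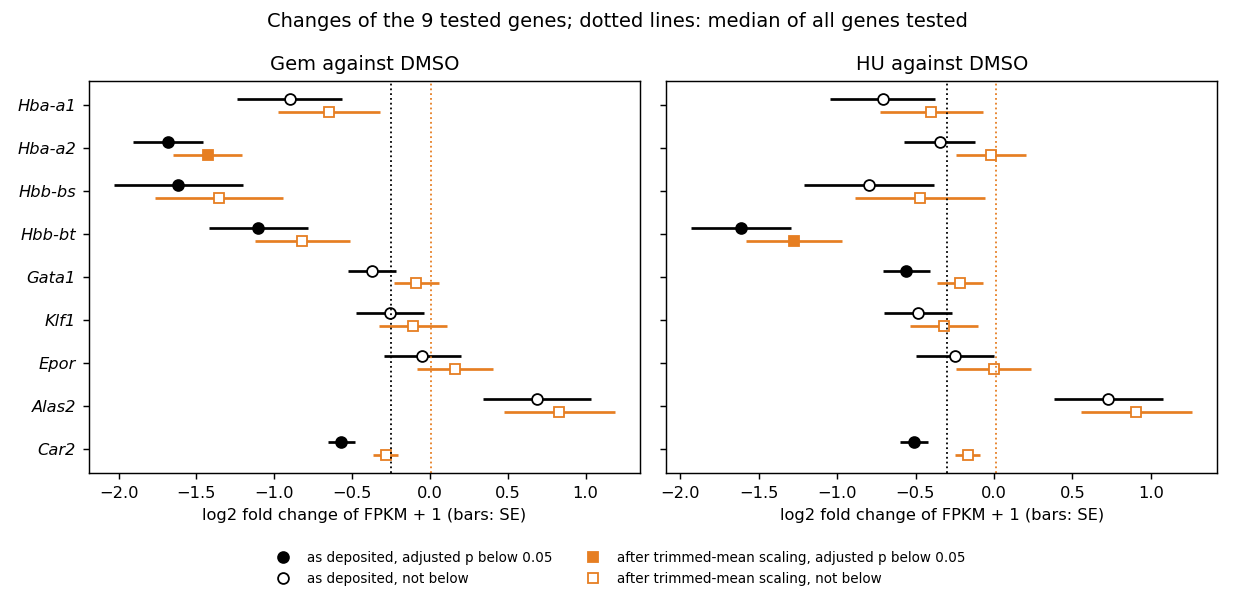
Log2 fold change of FPKM + 1 against DMSO for the 9 genes tested, with the SE as a bar, for Gem and HU as deposited (black circles) and after trimmed-mean scaling (orange squares). Filled symbols have an adjusted p below 0.05, dotted lines mark the median of all genes tested, and Hba-a2 with Gem and Hbb-bt with HU are the only filled squares.

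Set against each other, the drugs shared no control library, and none of the 9 genes passed (limma, 0 of 9; 0.101% of all genes were called, and 0.13% after scaling). At an unadjusted p under 0.05 there was 1, Hba-a2, which was 3.05-fold lower in mean with Gem than with HU (log2 difference -1.34 ± 0.25, 95% interval -1.92 to -0.76, adjusted p = 0.203; scaled adjusted p = 0.153). Both Gem libraries lay below both HU libraries, as they did for Hbb-bs; over the 9 genes this held for 2, and the reverse for 2 (13.8% and 27.7% of all genes), and for 3 and 1 after scaling (19.3% and 20.3%). Hbb-bt was higher in mean with Gem, by 0.51 ± 0.35 (interval -0.31 to 1.32, adjusted p = 0.649), and its groups overlapped. For Car2 the interval of the difference was -0.28 to 0.16, and for Gata1 -0.20 to 0.57. That Hba-a2 passed with Gem and Hbb-bt with HU therefore does not show that the drugs differ for either gene.

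Around the globin genes, the embryonic and minor globins were nearly silent. Of 8 other globin genes, Hbb-y reached at most 1.34 FPKM and Hbb-bh1 at most 1.07. The pseudogene Hbb-bh0 was listed at 15.1 in Gem replicate 2, 11.03 in HU replicate 1 and 0 elsewhere; it was the only one of the 8 tested and was not called.

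The haem pathway supplies the group that globin chains carry. Of its 13 genes, all tested, 6 fell with Gem and 7 with HU, beside 23.2% and 35.5% of all genes called lower; none rose as deposited, and the list medians were -0.34 and -0.35. Tmem14c, a mitochondrial porphyrin transporter, went from 262.3 to 272.7 FPKM in DMSO to 171.6 and 168.8 with Gem and 144.4 and 133.9 with HU. It fell with HU by 0.93 ± 0.07 (adjusted p = 0.00102) and was called after scaling too (-0.57, adjusted p = 0.00786); its fall with Gem, 0.64 ± 0.07 (adjusted p = 0.00557), was not (adjusted p = 0.07). Alas1, the form of the first enzyme used in most tissues, was read at 547.3 to 612.8 FPKM in DMSO, 432.8 and 441.0 with Gem, and 425.7 and 409.6 with HU, far above Alas2. It fell by 0.38 and 0.45 (adjusted p = 0.0143 and 0.00449) and was not called after scaling. Also lower were Urod (both drugs) and, with Gem, the glycine carrier Slc25a38 (-0.54, adjusted p = 0.013). After scaling, Tmem14c and Alad were the 2 haem genes called with HU (limma). Alad was higher (0.70, adjusted p = 0.0176) and was named after its value was seen. No haem gene was called with Gem, where at an unadjusted p under 0.05 there were 1 higher and 2 lower.

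Among 14 tested transcription factors of the erythroid network, 3 fell with Gem (Bcl11a, Ldb1 and Lmo2) and 5 with HU (Spi1, Gata2, Ldb1, Gata1 and Lmo2), close to the 23.2% and 35.5% of all genes called lower. Ldb1 and Lmo2 bridge Gata1 and Tal1 on DNA. Ldb1 was read at 8.48 to 9.10 FPKM in DMSO, 5.54 and 4.98 with Gem, and 4.65 and 4.6 with HU, and its fall with HU, 0.79 ± 0.11 (adjusted p = 0.00249), was the only one of the list called after scaling (-0.48, adjusted p = 0.0352). Lmo2 fell by 0.45 ± 0.08 with Gem and 0.59 ± 0.08 with HU (adjusted p = 0.00987 and 0.00196). Gata2, which precedes Gata1 in stem cells, was read at 28.6, 30.8 and 15.2 FPKM in DMSO, 16.2 and 18.4 with Gem, and 10.9 and 10.6 with HU; it fell with HU by 1.07 ± 0.27 (adjusted p = 0.0172; scaled -0.74, adjusted p = 0.128). Bcl11a, a repressor of embryonic globin genes, fell with Gem by 0.56 ± 0.13 (adjusted p = 0.0208). Spi1, the myeloid factor that opposes Gata1, was far higher, at 196.8 to 254.8 FPKM, and its fall with HU (-0.31, adjusted p = 0.0262) had the opposite sign after scaling (0.04). The list medians were -0.35 and -0.30.

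Of 14 tested genes of erythropoietin signalling, 4 fell with each drug and none rose, beside 23.2% and 35.5% of all genes called lower. The medians were -0.18 and -0.26. After scaling none was called (limma), and at an unadjusted p under 0.05 there were 3 higher and 1 lower with each drug. Ptpn6, a phosphatase that damps receptor signalling, fell by 0.34 and 0.37 (adjusted p = 0.0268 and 0.0125). Pim1, a kinase induced by Stat5, was read at 35.0, 51.8 and 16.3 FPKM in DMSO, 12 and 9.09 with Gem, and 8.64 and 10.6 with HU, and fell by 1.49 ± 0.41 and 1.60 ± 0.41 (adjusted p = 0.0367 and 0.0189). The feedback gene Socs3 fell with Gem by 0.42 (adjusted p = 0.0377). The direct target Cish was read at 1.42 to 2.69 FPKM in DMSO, 1.04 and 1.06 with Gem, and 1.66 and 1.47 with HU.

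Genes of the later red cell were mostly low or untested. Of 17 membrane and skeleton genes only 5 were tested; Kel was listed at 0 in all DMSO libraries, at 1.12 and 1.49 FPKM with Gem and at 0 and 0.63 with HU. It was tested only because of its Gem values, so its higher call there (adjusted p = 0.0231, not called after scaling) is given as a description. Of 9 tested late erythroid genes, 4 fell with Gem and 6 with HU, beside 23.2% and 35.5% of all genes called lower. Tspo2, named after its values were seen, was read at 0 to 0.02 FPKM in DMSO, 0.48 and 1.33 with Gem, and 1.11 and 0.73 with HU. It too was tested only because of drug libraries, and its higher call with HU (adjusted p = 0.0325) was not made after scaling. Prdx2, a peroxidase abundant in red cells, was read at 129.6 to 131.0 FPKM in DMSO, 95.5 and 75.4 with Gem, and 74.2 and 73.3 with HU. Its fall with HU, 0.81 ± 0.10 (adjusted p = 0.00161), was called after scaling (-0.46, adjusted p = 0.0227). Among the 7 tested carbonic anhydrases, Car5a, a mitochondrial form, was read at 0.34 to 0.75 FPKM in DMSO, 1.92 and 1.47 with Gem, and 3.01 and 1.93 with HU. It reached the threshold for testing only in the drug libraries, so its higher calls (adjusted p = 0.0454 and 0.00822; scaled 0.116 and 0.0172) are a description. The other called forms were lower: Car2 with both, and Car9 and Car13 with HU, neither of which was called after scaling (adjusted p = 0.106 and 0.457).

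Most of these calls of pathway genes were lost when some single library was left out. Of the 16 calls of named genes with Gem, none held when each library was left out in turn, and without Gem replicate 2 only 13 genes of the whole table were called. Of the 20 with HU, 7 held in every case (Alas1, Blvrb, Ldb1, Lmo2, Prdx2, Tmem14c and Xpo7). On the scaled values, the HU call of Tmem14c held in 6 of 7 such fits, those of Prdx2 and Car5a in 3 and that of Ldb1 in 0.

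**Figure D4:**
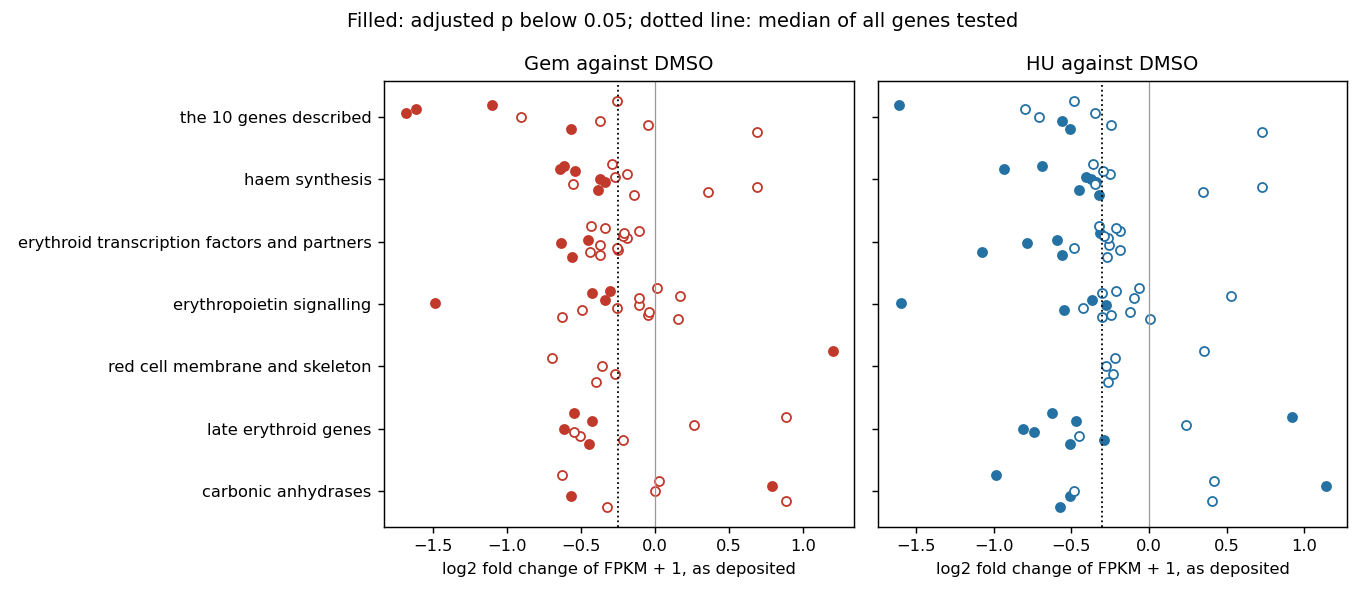
Log2 fold change as deposited of each tested gene in the 7 gene lists, for Gem and HU against DMSO; filled points have an adjusted p below 0.05 and the dotted line is the median of all genes. Of the 13 haem synthesis genes 6 points with Gem and 7 with HU are filled, all below 0, beside 23.2% and 35.5% of all genes called lower; after scaling none was called with Gem, and with HU 1 was called lower and 1 higher.

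The genes whose profile over the 7 libraries was closest to those of Hba-a2 and Gata1 were sought among 8491 genes with a mean of at least 5 FPKM. Likeness was the root mean square difference of log2(FPKM + 1) after centring each gene. For Hba-a2 these were Hbb-bs (0.35), Endog (0.42) and Msantd3 (0.43), and for Gata1 they were Rp9 (0.037), Srek1ip1 (0.053) and Cavin2 (0.055). Among the 10 genes, Klf1 and Car2 had the smallest distance (0.17) and Hbb-bt and Alas2 the largest (1.23). The distance is not scaled for how much a gene varies, so genes that vary little come out as alike. Klf1 was read at only 0.46 to 1.37 FPKM. The other adult globins differed from Hba-a2 by 0.50 (Hba-a1) and 0.81 (Hbb-bt). The values of single copies are uncertain, and so are these distances.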

How the data were processed

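The authors deposited 1 table of FPKM for 52224 genes and 7 libraries; every column matched a library of the labels, and 0 columns were left unused. Per the labels' protocols, RNA was extracted with a miRNeasy kit, amplified by Geo-seq and made into libraries with a TruePrep kit; strand is not stated. Per the submitters' processing notes the tools included HTSeq, Cufflinks 2.1.1, DESeq2 and Bowtie 0.12.9, on mm10, with no role or order; the tool that made the FPKM is not given in the sources used here. FPKM share 1 divisor per library; if it counts all mapped fragments, those from outside genes lower every value.

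Values were tested as log2(FPKM + 1), which understates changes of low genes, with limma 3.58.1 in R 4.3.3: 1 model of 3 groups with a variance trend, 4 residual degrees of freedom, two-sided tests, and Benjamini-Hochberg adjustment over 13865 genes with at least 1 FPKM in at least 2 libraries. Calls are adjusted p below 0.05, and the steps were tested on simulated data. Scaled values removed 30% of ratios and 5% of levels at each end. Named genes were the 10 members and, per list, up to 3 with the smallest p in each contrast and the 3 with the highest mean. Of the genes this rule took, 1 is not reported here by name. Members and lists were chosen with earlier results of these data known. Alternatives (scaling, TPM scale, filter, pseudocount, variance trend, groups fitted, replicate block, libraries left out) are given in the closing section. The labels do not say whether replicate numbers pair libraries across groups, and the main model did not pair them.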

Additional observations from a re-analysis of the deposited data

How the results depend on the processing

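Over all genes, the calls with Gem numbered 3421 as deposited (208 higher, 3213 lower), 440 on the TPM scale and 133 after trimmed-mean scaling (67 higher, 66 lower). With HU they were 5541 (619 higher, 4922 lower), 1478 and 1406 (645 higher, 761 lower). Without a filter the calls with Gem were 1509, and without the variance trend 2132. Leaving out 1 library gave 13 (without Gem replicate 2) to 3381 with Gem and 3095 (without HU replicate 1) to 5204 with HU. After scaling, chosen after the data were seen, leaving out DMSO replicates 1, 2 and 3, Gem replicates 1 and 2 and HU replicates 1 and 2 in turn gave 7, 39, 317, 8, 10, 94 and 86 calls with Gem and 291, 585, 1373, 1103, 1137, 250 and 101 with HU. Members called with Gem went from 4 to 1 on the TPM scale, 1 scaled, 2 without a filter and 2 without the trend, with 0 to 5 when 1 library was left out and 0 to 0 scaled. With HU, 3 became 1 on both rescaled versions, and 0 to 1 with a library left out after scaling. Gem against HU called 14 genes, 2 at a mean of at least 5 FPKM, 2 without a filter, 64 without the trend, 1 with a pseudocount of 0.1, 1 to 11 with a library left out and, after scaling, 8 without DMSO replicate 1, 3 without Gem replicate 2, 3 without HU replicate 1 and 1 without HU replicate 2; no setting called a member. With a replicate block, the counts were 2877, 4835 and 2, with 5, 3 and 0 members. Gata1 was the added member with Gem. Correlations of deviations between groups were 0.03, 0.04 and -0.07, which cannot show whether the replicate numbers pair libraries.

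The direction turned for Epor with Gem (0.10 on the TPM scale, 0.16 scaled, 0.11 without DMSO replicate 1 or Gem replicate 1; -0.25 to 0.11 over libraries left out). With HU it turned for Abcb10 (0.0134 scaled), Bnip3l (0.0452 TPM, 0.062 scaled), Lyn (0.0598 and 0.0765) and Spi1 (0.0266 and 0.0437). In Gem against HU it turned for Alas2 (-0.48 to 0.40 over libraries left out), Car2 (-0.12 to 0.0021) and Hba-a1 (-0.49 to 0.10). Of the alternative values of members, 352 kept direction and side of the threshold, 37 were no longer called and 5 became called. The 37 all belong to the 4 calls with Gem and 3 with HU of the main fit. The 352 include results that the main fit did not call, so they do not measure how stable the calls were. The causes were not tested. Depth is unknown, so no counting error is given.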

Other observations

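The genes beside the alpha globins, within 100000 bases of the cluster, were read at levels of their own. Snrnp25, a protein of the minor spliceosome, was read at 48.0, 43.2 and 32.2 FPKM in DMSO, 30.4 and 23.9 with Gem, and 21.8 and 24.8 with HU, and fell with HU by 0.78 on the log2 scale (limma, adjusted p = 0.0127; scaled -0.43, adjusted p = 0.148). Nprl3, whose introns hold the alpha globin enhancers, was read at 13.6 to 17.7 FPKM in DMSO, 13.4 and 10.8 with Gem, and 9.56 and 12.2 with HU, and fell with HU by 0.49 (adjusted p = 0.0418; scaled -0.16, adjusted p = 0.542). With Gem, where Hba-a2 fell, neither was called (adjusted p = 0.0534 and 0.142). Mpg, also beside the cluster, had differences of -0.22 and -0.14 (adjusted p = 0.29 and 0.475). Those of Sh3pxd2b were -0.13 and -0.11 (adjusted p = 0.575 and 0.612). Rhbdf1, tested only because of drug libraries, had higher means, by 0.63 and 0.31 (adjusted p = 0.212 and 0.493). Of all genes tested, 23.2% were called lower with Gem and 35.5% with HU. These genes were chosen by position, and the values share the DMSO libraries with those of the globins.

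The ratio of Gata1 to Gata2, taken per library, was 0.88 to 1.30 in DMSO, 0.97 and 1.16 with Gem, and 1.36 and 1.62 with HU, so both HU libraries lay above the others.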
